A study of Mus musculus with 21 samples.

Results

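Adventitial fibroblasts are the collagen-producing cells of the outer sheath of blood vessels and airways, and *Pi16* is one of their best known marker genes. In mouse melanoma and lung they were chosen cell by cell from the counts of unique molecular identifiers (UMIs, each standing for 1 captured RNA molecule). A cell was taken when it held a UMI of at least 2 of the 4 fibroblast genes *Col1a1*, *Col1a2*, *Col3a1* and *Dcn*, and of at least 2 of the 5 markers *Pi16*, *Scara5*, *Dpt*, *Clec3b* and *Galnt15*, with *Pi16* or *Scara5* among them. It also had to hold fewer than 2 of the 3 alveolar fibroblast genes *Npnt*, *Itga8* and *Limch1*, and no UMI of the leukocyte gene *Ptprc*, the endothelial gene *Pecam1* or the epithelial gene *Epcam*. This gate held 344 cells, out of 3228 cells that passed its fibroblast part and 51511 cells in the 12 libraries used.

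*Pi16*-positive fibroblasts occur around larger vessels in most organs, where they are regarded as a reserve population from which more specialized fibroblasts can arise. They surround the vessel with loose matrix of fibrillar collagen, elastic microfibrils and proteoglycans, and they express surface proteins such as CD34, LY6A and DPP4. In tumors, fibroblasts that lay down periostin, tenascin and collagens V and XII are usually described as activated or cancer-associated.

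The study asked how fibroblasts of melanoma lung metastases differ from those of the primary tumor and of normal lung. The hosts were young adult mT/mG mice, in which every host cell carries the red fluorescent protein tdTomato from the ROSA26 locus and the transplanted melanoma cells carry none. Fragments of MT-ret melanoma were grown under the skin, the primary tumor was removed, and lung metastases were collected later. The compared groups are lung metastasis TME (tumor microenvironment, host cells sorted from lung metastases), primary tumor TME (host cells sorted from the tumor under the skin) and unchallenged lung (from mT/mG mice that received no melanoma).

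All 3 groups share the same reporter and the same cold enzyme digestion, freezing and thawing, and cells were sorted as living tdTomato+ or tdTomato+ CD45- cells. Metastasis samples kept some neighboring lung tissue. The tissue label of primary tumor samples reads lung, while their disease label names the primary tumor, and they are treated here as primary tumor. The primary tumor was in the skin and the control is lung, so tissue of origin and tumor cannot be told apart in any comparison of these 2 groups.

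Libraries of replicates 5 and 7, and of replicates 6 and 8, held identical barcodes and counts in both TME groups and were counted once. Each group then had 4 libraries, with 6158006 to 53506609 UMIs in unchallenged lung, 2750267 to 27672199 in lung metastasis TME and 1777036 to 17577997 in primary tumor TME. Cells of replicates 1 to 3 were counted as a single library in each TME group because the sample titles join them, although the library names tell replicates 1, 2 and 3 of the primary tumor, and 2 and 3 of the metastasis, apart. No barcode was shared between libraries among the 344 cells, and 4 of their barcodes occurred in another library.

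The 344 cells were unevenly spread, so that gene levels rest on 5 libraries. In unchallenged lung, replicate 5 held 72 adventitial fibroblasts and replicate 6 held 117, whereas replicate 4 held 2 and replicate 1 none. In lung metastasis TME, replicate 5 held 29, replicates 4 and 6 held 1 each, and the pool of replicates 1 to 3 held none. In primary tumor TME, replicate 5 held 43, replicate 6 held 66, replicate 4 held 8 and the pool held 5. The 5 libraries with at least 10 such cells were all made in the third run, and library names give metastasis and primary tumor replicate 5 the same mouse.

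These 5 libraries differed in ways other than tissue. The median adventitial fibroblast held 5901 UMIs in unchallenged lung replicate 5 but 1559 in replicate 6, against 5895 in metastasis replicate 5 and 5356 and 5104 in primary tumor replicates 5 and 6. Replicate 6 of unchallenged lung was the largest library, with 25966 cells, and *Ptprc* was detected in 80.4% of all its cells. The same share was 63.4% in unchallenged lung replicate 5, 2.26% in metastasis replicate 5, and 0.660% and 0.0839% in primary tumor replicates 5 and 6. The median share of mitochondrial UMIs in adventitial cells was 3.73% and 6.11% in lung, 2.23% in the metastasis, and 12.3% and 9.04% in primary tumors, so that both primary tumor libraries were above the other 3. The shares of leukocytes and of mitochondrial UMIs thus ran with tissue in these libraries, and their parts cannot be told apart from it.

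The markers that defined the gate are given as a description, since cells were chosen on them. *Pi16*, a secreted peptidase inhibitor (GRCm38 chromosome 17, 29317680 to 29330593, plus strand), was detected in 317 of the 344 cells. *Scara5*, a ferritin receptor (chromosome 14, 65666403 to 65764826, plus strand), was detected in 175 cells, and both genes together in 148. Exactly 2 of the 5 markers were held by 2.78% and 19.7% of adventitial cells in lung replicates 5 and 6, and 17.2% in metastasis replicate 5. In primary tumor replicates 5 and 6 this share was 27.9% and 59.1%. At the edge of the gate, 84 cells held exactly 2 of the 5 markers, 87 held 3, 97 held 4 and 76 held all 5. Just outside it lay 227 fibroblasts with *Pi16* or *Scara5* as their single marker, 83 with 2 or more markers but neither of these genes, and 13 excluded by alveolar genes.

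Levels are given as CPM, the UMIs of a gene per 1000000 UMIs of all adventitial fibroblasts of a library, and 1 UMI was worth 2.26 to 6.00 CPM. *Pi16* was at 2620 and 1231 CPM in unchallenged lung replicates 5 and 6, at 3329 CPM in metastasis replicate 5, and at 996 and 660 CPM in primary tumor replicates 5 and 6. The metastasis library was highest and the primary tumor libraries lowest. *Clec3b*, which encodes the plasminogen-binding protein tetranectin (chromosome 9, 123150946 to 123157432, plus strand), was at 6511 and 2283 CPM in lung, 2879 CPM in the metastasis, and 1214 and 557 CPM in primary tumors.

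The most uneven marker was *Galnt15*, which encodes an enzyme that starts O-linked glycosylation (chromosome 14, 32028989 to 32062197, plus strand). It was at 559 and 311 CPM in lung, 156 CPM in the metastasis, and 12.3 and 5.92 CPM in primary tumors. It was found in 86.1% and 36.8% of cells in lung, 55.2% in the metastasis, and 6.98% and 3.03% in primary tumors. All 5 markers together were held by 51 and 13 cells in the lung libraries, 9 in the metastasis, and 1 and 0 in primary tumors, so primary tumor cells entered the gate mostly without *Galnt15*.

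Of the fibroblast genes of the gate, the collagen genes were higher and *Dcn* lower in primary tumors than in lung. *Col1a1*, a chain of collagen I, was at 1914 and 1071 CPM in lung, 1661 CPM in the metastasis, and 11588 and 14036 CPM in primary tumors. *Col3a1*, the chain of collagen III, was at 2974 and 1528 CPM in lung, 4229 CPM in the metastasis, and 20189 and 20848 CPM in primary tumors. *Dcn*, the collagen-binding proteoglycan decorin, was at 20365 and 8760 CPM in lung, 9507 CPM in the metastasis, and 3346 and 2938 CPM in primary tumors. The metastasis library lay nearer to the lung than to the primary tumor libraries for all 3 genes.

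The name of the population was checked with 20 further adventitial genes that the gate did not read, among them *Cd34*, *Ly6a*, *Mfap5*, *Igfbp6*, *Gsn* and *Tnxb*. All 20 were detected in each of the 5 libraries, with a summed level of 12167 to 43250 CPM. Against alveolar fibroblasts of the same library, 16 of the 20 were higher in each of the 4 libraries that held enough of both, where 10.6% of 6297 genes were. Against all other fibroblasts, 14 of the 20 were higher in each of 5 libraries, where 6.84% of genes were. The rest, *Dpp4*, *Sema3c*, *Ackr3*, *Anxa3*, *Il33* and *Ebf2*, were each lower in some library. *Dpp4* was at 40.8 CPM in adventitial cells of lung replicate 5 against 281 CPM in other fibroblasts. It was also lower in lung replicate 6, but higher in the metastasis and both primary tumor libraries. The gate itself made the contrasts with alveolar and other fibroblasts, so they were not tested.

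The genes that set adventitial cells apart most evenly in every library included secreted, matrix and surface proteins. *Sfrp4*, a Wnt-binding protein, was highest over both alveolar and other fibroblasts, with log2 ratios of 3.15 to 4.49 over alveolar and 1.89 to 4.83 over other fibroblasts. Next against other fibroblasts came the scavenger receptor gene *Scara3*, the tenascin gene *Tnxb* and the fibrillin gene *Fbn1*. *Tnxb* was at 933, 351, 528, 2239 and 1306 CPM in the 5 libraries (in the order lung 5, lung 6, metastasis 5, primary tumor 5 and primary tumor 6), against 219, 99.4, 40.4, 190 and 49.7 CPM in other fibroblasts. Against alveolar fibroblasts, *Ebf1*, a transcription factor, *Entpd2*, a surface enzyme that cleaves ATP, and *Ntrk2*, a neurotrophin receptor, followed.

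**Figure D1:**
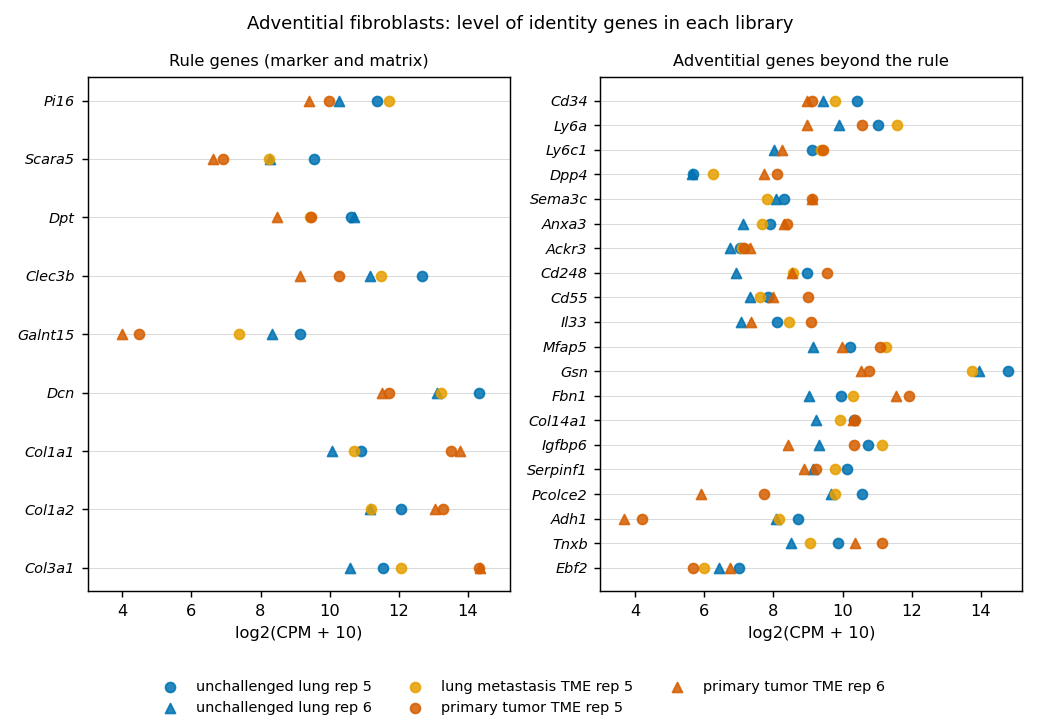
Level of the genes read by the gate (left) and of 20 adventitial genes it did not read (right) in adventitial fibroblasts, as log2(CPM + 10), with 1 point per library and color for tissue. *Gsn*, *Adh1* and *Pcolce2* lay lower in both primary tumor libraries than in both lung libraries, while *Dpp4* and *Fbn1* lay higher.

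The share of adventitial cells among gated fibroblasts varied widely within tissues. In unchallenged lung it was 4.17% in replicate 4 (2 of 48 cells, exact 95% interval 0.509 to 14.3), 59.0% in replicate 5 (72 of 122, 49.7 to 67.8) and 36.8% in replicate 6 (117 of 318, 31.5 to 42.4). In lung metastasis TME it was 5.97% in replicate 5 (29 of 486, 4.03 to 8.46) and 1.06% in replicate 6 (1 of 94, 0.0269 to 5.79). In primary tumor TME it was 4.26% in replicate 4 (8 of 188, 1.85 to 8.21), 27.9% in replicate 5 (43 of 154, 21.0 to 35.7) and 3.69% in replicate 6 (66 of 1791, 2.86 to 4.66). Intervals cover counting error only, and the lowest lung library lay among the tumor libraries.

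The mean share was 33.3% ± 27.6 (SD, n = 3 libraries) in unchallenged lung, 3.52% ± 3.47 (n = 2) in lung metastasis TME and 12% ± 13.8 (n = 3) in primary tumor TME. Primary tumor differed from lung by -21.4 percentage points (p = 0.3, two-sided exact permutation test of library labels, which can reach 0.1 at the lowest). Metastasis differed from lung by -29.8 points and from primary tumor by -8.44 points (exact permutation p = 0.4 and 0.6, with 0.2 the lowest possible). Library names give replicates 5 and 6 of metastasis and primary tumor the same mice, and this test did not pair them. The Benjamini-Hochberg adjusted permutation p was 0.6 for each of the 3 comparisons, and the spread between libraries does not let the shares be ordered by tissue. Without unchallenged lung replicate 5, or without primary tumor replicate 5, the differences shrank to -8.53 points for primary tumor against lung and -0.455 points for metastasis against primary tumor.

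Thinning moved the shares of single libraries. After thinning each cell to 1000 UMIs, and leaving out shallower cells, the share was 5.41%, 58.7% and 31.9% in the 3 lung libraries, 6.49% and 1.75% in the 2 metastasis libraries, and 1.12%, 17.7% and 1.57% in the 3 primary tumor libraries. Primary tumor replicate 6 had 445 fibroblasts that were too shallow for this step. The whole gate was read again on the thinned counts, so cells that lost their *Ptprc*, *Pecam1* or *Epcam* UMIs could enter. Gated fibroblasts of unchallenged lung replicate 6 went from 318 to 379. These shares thus mix depth with a looser gate. A share is also bound to the sort, since tdTomato+ and tdTomato+ CD45- samples were both made.

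**Figure D2:**
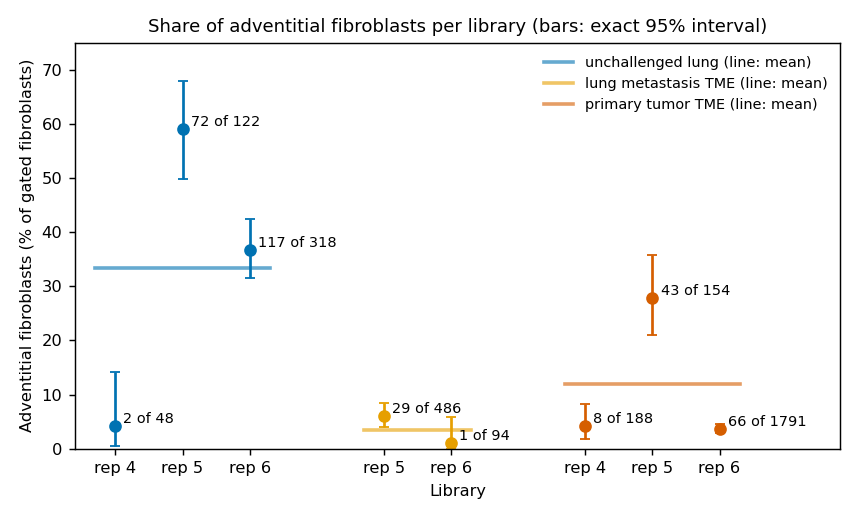
Adventitial fibroblasts as a percentage of gated fibroblasts in each library with at least 20 gated fibroblasts; points are libraries with exact 95% intervals for counting error, and horizontal lines are group means. Replicates 5 and 6 of unchallenged lung and replicate 5 of primary tumor stand at 27.9% or above, and all other libraries lie between 1.06% and 4.26% except metastasis replicate 5 at 5.97%.

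Between adventitial fibroblasts of primary tumors and of unchallenged lung, the genes that passed the test were all higher in primary tumors for the collagen and activation lists (8 of 13 and 7 of 17) and all lower for the detoxification, complement and lung position lists (8 of 16, 3 of 9 and 4 of 8). UMIs were summed over the adventitial cells of each library and compared with edgeR (quasi-likelihood F test, Benjamini-Hochberg adjustment over 6297 genes). Of these genes, 276 (4.38%) were higher and 347 (5.51%) lower in primary tumors at an adjusted p below 0.05, which makes 623 (9.89%). The activation and detoxification counts include genes without a UMI in lung or in primary tumor, whose direction the filter on low counts fixed. Some collagen genes also passed that filter only through primary tumor. The median log2 fold change over all genes was -0.03. Library names give each of these libraries its own mouse, and 2 libraries stood against 2.

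Of these 623 genes, those tested in another setting (583 to 623, depending on the setting) kept their direction in each one. This was largely fixed beforehand, since lung and primary tumor libraries overlapped for none of them and the settings share most counts. The number called was not kept. It was 354 to 897 when 1 library was left out, with the lowest value without primary tumor replicate 6 and the highest without unchallenged lung replicate 6. DESeq2 called 168 genes, of which 147 were among the 623. When cells with *Ptprc*, *Pecam1* or *Epcam* UMIs were let in, 545 cells were added, 487 of them in unchallenged lung replicate 6, and 9 genes were called. Of the 90 called genes that are named by rule, 56 were also called by DESeq2, and 7 (*Sfrp2*, *Thbs4*, *Chl1*, *Cthrc1*, *Dct*, *Tyrp1* and *Scgb1a1*) were called in every setting. Of these 7, *Sfrp2*, *Thbs4*, *Chl1* and *Tyrp1* had no UMI in lung and *Scgb1a1* had none in primary tumor. The filter on low counts thus fixed their direction, and *Dct* had 1 UMI in lung. *Dct*, *Tyrp1* and *Scgb1a1* are known from other cell types, and their values are not read as expression by adventitial cells.

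Gene groups are described by the number of their genes that passed edgeR's test. With cells holding *Ptprc*, *Pecam1* or *Epcam* let in, these counts nearly vanished. No collagen, elastic fiber, glycolysis, complement, detoxification or lung position gene was then called, and 1 activation gene was. Where a gene had no UMI in either library of a tissue, the fold is given as a lower bound, computed against 3 counts over both libraries. Such a gene could pass the filter on low counts only through the other tissues, so the filter fixed the direction of its difference, and its adjusted p and its place in the count of a list are a description. Where it had 1 to 3 UMIs there, the ratio of summed CPM is given with its 95% counting interval. The filter asked for a minimum level in at least 1 library. Genes with few UMIs in lung and metastasis, such as *Col5a3*, *Col12a1*, *Col8a1*, *Fap*, *Thbs1* and *Hk2*, therefore passed it only through primary tumor. The filter favored the direction of such genes, and their adjusted p and place in a list carry this limit.

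Of 13 fibrillar and network collagen genes tested, 8 rose in primary tumors and none fell (6 and 0 with DESeq2, 8 to 11 and 0 with 1 library left out), with a median log2 fold change of 2.23. *Col5a3*, a chain of collagen V, which starts collagen fibrils (chromosome 9, 20770050 to 20815067, minus strand), was at 20.4 and 17.8 CPM in lung, 24.0 CPM in the metastasis, and 543 and 971 CPM in primary tumors. It rose by 5.31 ± 0.53 on the log2 scale (SE, edgeR adjusted p = 5.54e-07). It was detected in 76.7% and 63.6% of primary tumor cells and in 11.1% and 3.42% of lung cells, so most but not all primary tumor cells held it. Other fibroblasts of the same libraries held it at 15.6 and 4.97 CPM in lung and at 909 and 557 CPM in primary tumors.

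*Col12a1*, a collagen that decorates the fibril surface, was at 4.53 and 13.3 CPM in lung and 412 and 187 CPM in primary tumors (log2 5.25 ± 0.60, edgeR adjusted p = 1.84e-05). *Col8a1*, a short-chain collagen of vessel walls, had 2 UMIs in lung and was 64.3-fold higher in primary tumors (17.4 to 537, edgeR adjusted p = 3.56e-06). *Col6a3*, a chain of the beaded filaments of collagen VI, was at 211 and 111 CPM in lung, 204 CPM in the metastasis, and 844 and 835 CPM in primary tumors (log2 2.41 ± 0.45, edgeR adjusted p = 0.000878). *Col16a1*, *Col5a2*, *Col5a1* and *Col4a2* rose by 2.10 to 2.73 on the log2 scale. The metastasis library lay inside or near the range of lung for these collagens.

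Genes of activated fibroblasts rose with them, 7 of 17 tested and none lower, with a median of 2.77. DESeq2 called 5 higher and 0 lower, and with 1 library left out 7 to 12 were higher and 0 to 1 lower. *Postn*, the matrix protein periostin (chromosome 3, 54361109 to 54391037, plus strand), was at 18.1 and 8.88 CPM in lung, 120 CPM in the metastasis, and 1325 and 915 CPM in primary tumors. The lung and primary tumor libraries did not overlap, as for 54.9% of all genes. The rise over lung was 6.28 ± 0.57 on the log2 scale (edgeR adjusted p = 1.61e-07). Periostin RNA was found in 86.0% and 74.2% of primary tumor cells, 20.7% of metastasis cells, and 6.94% and 1.71% of lung cells.

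*Cthrc1*, a secreted protein of collagen-producing cells, was at 6.79 and 4.44 CPM in lung, 72 CPM in the metastasis, and 523 and 385 CPM in primary tumors (log2 6.20 ± 0.57, edgeR adjusted p = 1.67e-07). *Fn1*, fibronectin, was at 1132 and 529 CPM in lung, 984 CPM in the metastasis, and 4893 and 6406 CPM in primary tumors (log2 2.80 ± 0.48, edgeR adjusted p = 0.000408). *Fap*, the surface protease used as a marker of cancer-associated fibroblasts, was at 15.9 and 22.2 CPM in lung, 30.0 CPM in the metastasis, and 128 and 85.9 CPM in primary tumors (log2 2.56 ± 0.52, edgeR adjusted p = 0.00209). The metastasis library stood between lung and primary tumor for *Postn* and *Cthrc1*, and within the lung range for *Fn1*. In the metastasis, 8 of the 12 *Cthrc1* UMIs lay in 1 cell, and 3 of 29 cells held any.

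The matricellular proteins tenascin-C and the thrombospondins were nearly silent in lung. *Tnc* had no UMI in the lung or metastasis libraries and was at 70.0 and 246 CPM in primary tumors, at least 38.3-fold higher than lung (edgeR adjusted p = 0.00262). The filter thus fixed its direction, as it did for *Thbs4*. *Thbs4* had none either and was at 140 and 275 CPM in primary tumors, at least 48.6-fold higher (edgeR adjusted p = 1.36e-06). Other fibroblasts held *Thbs4* at 284 and 255 CPM in primary tumors and had none in lung. *Thbs1* had 1 UMI in lung and was 145-fold higher in primary tumors (25.5 to 5759, edgeR adjusted p = 5.61e-07). In primary tumors *Tnc* was lower in adventitial than in other fibroblasts of the same library (70.0 against 923 CPM and 246 against 666 CPM), whereas *Postn* was higher (1325 against 560 CPM and 915 against 429 CPM). These differences within a library were not tested, because the gate made them.

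Smooth muscle actin stayed low throughout. *Acta2*, the contractile marker of myofibroblasts, was at 9.06 and 8.88 CPM in lung, 48.0 CPM in the metastasis, and 45.3 and 71.1 CPM in primary tumors. Of 3 smooth muscle genes tested, *Acta2* and *Tagln* rose (edgeR adjusted p = 0.00736 and 0.0211), and DESeq2 called neither.

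Elastic fiber genes split. Of 16 tested, 7 rose and 2 fell in primary tumors (3 and 2 with DESeq2, 4 to 8 and 1 to 3 with 1 library left out), with a median of 1.17. *Fbn2*, the fibrillin of developing microfibrils, had no UMI in lung or metastasis and was at 128 and 341 CPM in primary tumors, at least 55.9-fold higher than lung (edgeR adjusted p = 0.000192), in a direction that the filter fixed. Other fibroblasts held *Fbn2* at 288 and 276 CPM in primary tumors and had none in lung. *Lox*, which crosslinks collagen and elastin, was at 65.7 and 48.9 CPM in lung, 192 CPM in the metastasis, and 457 and 293 CPM in primary tumors (log2 2.73 ± 0.44, edgeR adjusted p = 0.000213). *Loxl2*, *Ltbp2*, *Mfap2*, *Fbln2* and *Efemp2* also rose.

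The 2 elastic fiber genes that fell encode proteins of mature elastic tissue. *Ltbp4*, which tethers latent TGF-beta and helps elastin assembly, was at 1128 and 706 CPM in lung, 786 CPM in the metastasis, and 103 and 201 CPM in primary tumors (log2 -2.53 ± 0.47, edgeR adjusted p = 0.000799). *Fbln1*, a fibulin, was at 1696 and 1044 CPM in lung, 1062 CPM in the metastasis, and 296 and 110 CPM in primary tumors (log2 -2.71 ± 0.52, edgeR adjusted p = 0.00213). Both genes were at the lung level in the metastasis library.

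Of the 20 adventitial genes the gate did not read, 2 rose and 3 fell in primary tumors, with a median of 0.45. DESeq2 called the same numbers, and with 1 library left out 2 to 9 rose and 2 to 4 fell (7 and 3 with the replicate number as a block). *Dpp4*, a surface dipeptidase (CD26), was at 40.8 and 40 CPM in lung, 66.0 CPM in the metastasis, and 267 and 201 CPM in primary tumors (log2 2.57 ± 0.41, edgeR adjusted p = 0.000187). *Fbn1*, the main microfibril protein, was at 990 and 515 CPM in lung, 1260 CPM in the metastasis, and 3856 and 2959 CPM in primary tumors (log2 2.23 ± 0.46, edgeR adjusted p = 0.00253). Endothelial cells of the lung libraries held *Dpp4* more often than adventitial cells did (35.2% against 19.4% in replicate 5).

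*Gsn*, the actin-severing protein gelsolin (chromosome 2, 35256380 to 35307892, plus strand), was at 28341 and 15677 CPM in lung, 13693 CPM in the metastasis, and 1728 and 1460 CPM in primary tumors. It fell by 3.73 on the log2 scale (SE 0.48, edgeR adjusted p = 1.64e-05) and yet stayed above other fibroblasts of the same library in all 5 libraries, at 449 and 341 CPM in the primary tumor ones. *Adh1*, an alcohol dehydrogenase that oxidizes retinol, was at 408 and 258 CPM in lung and 276 CPM in the metastasis, and with 3 UMIs in primary tumors its ratio of lung to primary tumor was 69.1 (23.4 to 337, edgeR adjusted p = 8.67e-07). *Pcolce2*, an enhancer of procollagen processing, also fell (log2 -3.15 ± 0.66, edgeR adjusted p = 0.0135).

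Of 16 Wnt, BMP and TGF-beta signaling genes tested, 2 rose and 6 fell in primary tumors (1 and 4 with DESeq2, 2 to 5 and 3 to 8 with 1 library left out), with a median of -1.04. The Wnt modulator *Sfrp2* (chromosome 3, 83766321 to 83774316, plus strand) had no UMI in the adventitial cells of unchallenged lung or metastasis and was at 325 and 539 CPM in primary tumors. This was at least 99.9-fold above lung (edgeR adjusted p = 9.52e-08), in a direction that the filter fixed. It was found in 17 of 43 and 24 of 66 primary tumor cells, and other fibroblasts of these libraries held 22.8 and 55.5 CPM. Other fibroblasts of the lung libraries held *Sfrp2* at 62.4 and 44.7 CPM. *Bmper*, a secreted BMP regulator, had no UMI in lung either and was at least 11.5-fold higher (edgeR adjusted p = 0.0128). The filter fixed this direction too.

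*Wnt5a*, a ligand of non-canonical Wnt signaling, was at 238 and 267 CPM in lung, 72 CPM in the metastasis, and 4.12 and 17.8 CPM in primary tumors (log2 -4.31 ± 0.51, edgeR adjusted p = 5.04e-06). *Gdf10*, a member of the BMP family, was at 226 and 138 CPM in lung, 54.0 CPM in the metastasis, and 12.3 and 2.96 CPM in primary tumors (log2 -4.59 ± 0.60, edgeR adjusted p = 2.45e-05). Both lay between the other tissues in the metastasis. *Bmp4* was 41.4-fold higher in lung (11.1 to 347, edgeR adjusted p = 3.86e-05) and stood at 144 CPM in the metastasis, within the lung range of 102 to 163. The antagonists *Nbl1*, *Dkk3* and *Chrdl1* fell by 1.65 to 2.80 on the log2 scale.

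*Wnt2*, a ligand made by lung mesenchyme (chromosome 6, 17988940 to 18030585, minus strand), rose in primary tumors although it was listed among genes of alveolar fibroblasts. It was at 6.79 and 4.44 CPM in lung, 66.0 CPM in the metastasis, and 152 and 74.0 CPM in primary tumors (log2 4.19 ± 0.64, edgeR adjusted p = 0.000116). It was held by 18 of 43 and 15 of 66 primary tumor cells, by 4 of 29 metastasis cells (7 of 11 UMIs in 1 of them), and by 2 of 72 and 1 of 117 lung cells. Other fibroblasts of the primary tumor libraries had 14.0 and 4.11 CPM.

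Out of 7 tested genes of the alveolar list, 4 fell in primary tumors. *Inmt*, a methyltransferase of lung mesenchyme (chromosome 6, 55170626 to 55175043, minus strand), was at 2376 and 2106 CPM in lung and 1002 CPM in the metastasis, and 2 UMIs remained in primary tumors. Its ratio of lung to primary tumor was 663 (183 to 5482, edgeR adjusted p = 2e-08). *Fmo2*, a lung monooxygenase, was at 1175 and 697 CPM in lung, 828 CPM in the metastasis, and 24.7 and 8.89 CPM in primary tumors (log2 -5.79 ± 0.60, edgeR adjusted p = 8.67e-07). It was held by 87.5% of adventitial and 51.0% of endothelial cells of lung replicate 5. *Ces1d*, a lung carboxylesterase, and *Tcf21*, a mesenchymal transcription factor, had no UMI in primary tumors and were at least 19.5-fold and 15.1-fold higher in lung. The filter fixed the direction of both.

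Of 16 detoxification and redox genes tested, none rose in primary tumors and 8 fell (0 and 6 with DESeq2, 3 to 10 lower with 1 library left out), with a median of -1.60. *Gstm1*, a glutathione transferase, was at 1248 and 880 CPM in lung, 810 CPM in the metastasis, and 94.6 and 59.2 CPM in primary tumors (log2 -3.74 ± 0.49, edgeR adjusted p = 1.84e-05). It was held by 95.8% of adventitial and 62.9% of endothelial cells of lung replicate 5, and by 67.5% and 49.4% in lung replicate 6. *Ephx1*, an epoxide hydrolase, and *Aldh1a1*, which makes retinoic acid, fell by 3.76 and 3.50 on the log2 scale. *Cygb*, the fibroblast globin, was at 1207 and 986 CPM in lung, 2063 CPM in the metastasis, and 317 and 246 CPM in primary tumors (log2 -1.90 ± 0.44, edgeR adjusted p = 0.00562), with the metastasis above both other tissues. *Txnip*, *Gstm2*, *Aldh2* and *Gsta3* fell too. Glutathione transferases and carboxylesterases have close copies in the genome, so reads may be split between them.

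Complement genes fell in 3 of 9 cases and rose in none (1 lower with DESeq2, 1 to 6 with 1 library left out), with a median of -1.45. *C2* and the C1 inhibitor gene *Serping1* fell by 1.77 and 1.62 on the log2 scale (edgeR adjusted p = 0.021 and 0.0457).

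Chemokine genes changed in 4 of 12 cases, 3 higher and 1 lower. DESeq2 called 3 higher and 0 lower, and with 1 library left out 3 to 4 were higher and 0 to 2 lower. *Ccl2*, which recruits monocytes, was at 2.26 and 13.3 CPM in lung and 148 and 406 CPM in primary tumors, with no UMI in the metastasis (log2 5.44 ± 0.71, edgeR adjusted p = 0.000413). In primary tumor replicate 5, 26 of its 36 UMIs lay in 1 of 43 cells and 7 cells held any, against 44 of 66 cells in replicate 6. Its neighbor *Ccl7* had 1 UMI in lung and was 65.4-fold higher in primary tumors (11.3 to 2630, edgeR adjusted p = 3.81e-05). *Cxcl14* rose as well (log2 4.50 ± 0.87, edgeR adjusted p = 0.0106), and *Cxcl16* fell (log2 -2.38 ± 0.65, edgeR adjusted p = 0.0202) but was at 96.0 CPM in the metastasis, above 52.1 and 44.4 CPM in lung.

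Glycolysis and hypoxia genes rose in 8 of 15 cases and fell in none, with a median of 1.59, but DESeq2 called 2 of them and leaving out 1 library gave 2 to 9. *Hk2*, the hexokinase of rapidly growing cells, was at 2.26 and 17.8 CPM in lung, 12 CPM in the metastasis, and 119 and 124 CPM in primary tumors (log2 3.92 ± 0.63, edgeR adjusted p = 0.000261). *Ldha*, lactate dehydrogenase, was at 67.9 and 120 CPM in lung, 408 CPM in the metastasis, and 251 and 426 CPM in primary tumors (log2 1.95 ± 0.44, edgeR adjusted p = 0.00485). *Pgk1*, *Eno1*, *Gapdh*, *Pgam1*, *Pfkl* and *Pkm* rose by 1.37 to 2.74 on the log2 scale, and several of these enzymes have processed pseudogenes that may share reads.

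Fibroblasts keep a record of body position in transcription factor genes of the Hox and T-box families. Of 8 lung position genes tested, 4 fell in primary tumors (none called with DESeq2, 1 to 6 with 1 library left out). *Hoxa5* (chromosome 6, 52201754 to 52204587, minus strand) was at 79.3 and 62.2 CPM in lung, 54.0 CPM in the metastasis, and 4.12 and 11.8 CPM in primary tumors (log2 -2.97 ± 0.63, edgeR adjusted p = 0.00287). *Tbx5*, *Hoxb4* and *Hoxb5* were the others. *Hoxa5* was found in 38.3% of endothelial cells of lung replicate 5 against 34.7% of adventitial cells, and *Tbx5* in 0.166% against 26.4%.

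Of 15 genes of more posterior position, 4 had enough UMIs to be tested. None of the 4 had a UMI in lung, so they entered the test only through primary tumor and their direction was fixed by that filter, and 2 passed (1 with DESeq2, 0 to 4 with 1 library left out). Of the 11 not tested, *Hoxa7* had 18 and 1 UMIs in lung against 3 and 7 in primary tumors. *Hoxc6* (chromosome 15, 102998257 to 103011881, plus strand) had no UMI in lung or metastasis and was at 82.3 and 80.0 CPM in primary tumors, at least 18.0-fold higher (edgeR adjusted p = 6.61e-05). *Hoxc8* was at 61.7 and 59.2 CPM there with none elsewhere, at least 13.4-fold higher (edgeR adjusted p = 0.00177). *Hoxc9* and *Tbx15* had UMIs in both primary tumor libraries alone (37.0 and 44.4 CPM, and 70.0 and 20.7 CPM) and did not pass. In the metastasis library a count of 0 allows up to 18.0 CPM (3 counts).

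**Figure D3:**
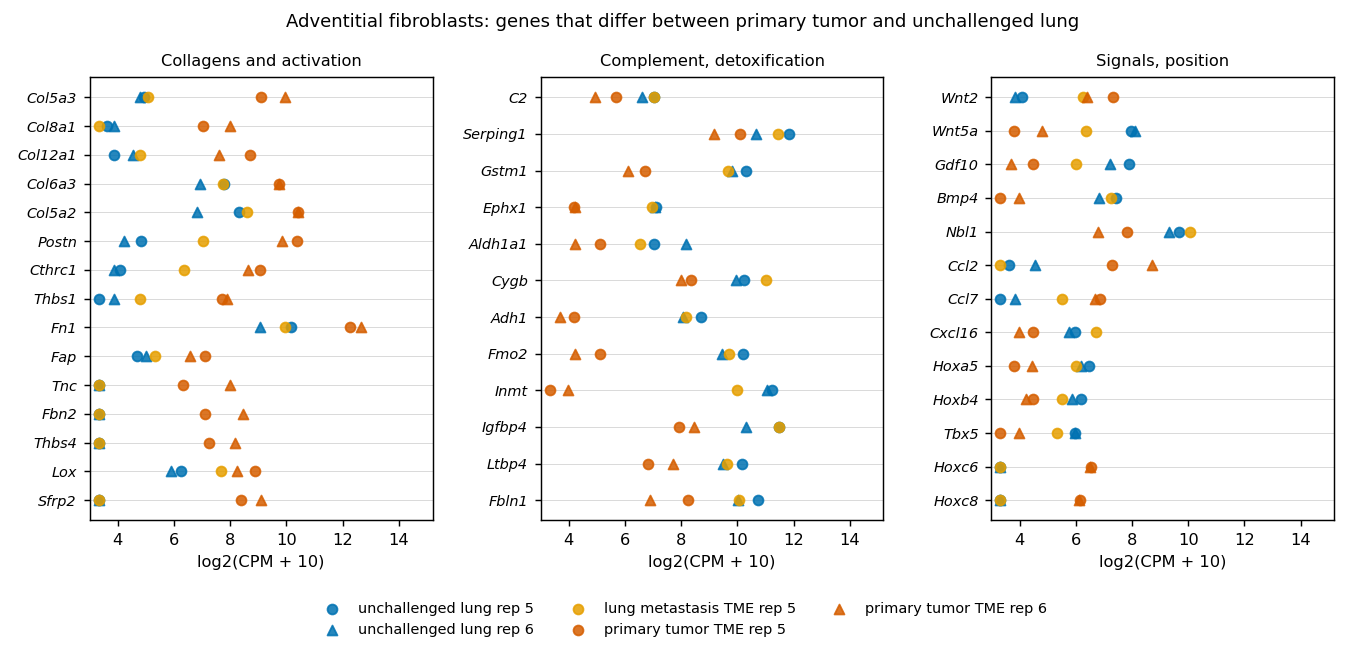
Level of genes that differed in adventitial fibroblasts, as log2(CPM + 10), with 1 point per library, grouped as collagens and activation, complement and detoxification, and signals and position. Points of the 2 primary tumor libraries lie apart from those of the 2 lung libraries for each gene. The same was true of all 623 called genes and of 54.9% of all genes tested. The metastasis point lies near lung for most genes.

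Other lists held genes that rose and genes that fell, or few that passed. IGF axis genes fell in 2 of 6 cases, led by *Igfbp4*, which binds insulin-like growth factors, at 2879 and 1253 CPM in lung, 2831 CPM in the metastasis, and 230 and 344 CPM in primary tumors (log2 -2.80 ± 0.50, edgeR adjusted p = 0.00068). Among proteases and inhibitors, 3 of 16 rose, *Serpine2* and *Timp1* among them, and 3 fell (*Mmp3*, *Timp2*, *Timp3*), which became 3 to 10 and 1 to 4 with 1 library left out. The proteoglycan gene *Lum* rose and *Ogn* fell among 6 tested.

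Inflammatory genes went both ways. Interferon and MHC class I genes passed about as often as all genes tested, of which 9.89% did. Of 10 acute phase and IL1 response genes 2 rose (*Tnfaip6*, *Ptx3*) and 2 fell (*Vcam1*, *Icam1*), and DESeq2 called none of the 10. Of 10 interferon genes 1 fell (*Gbp2*), and of 9 MHC class I genes 1 fell (*B2m*). In the cell cycle list, *Cenpf* passed, with no UMI in lung and a level at least 11.5-fold higher in primary tumors. The filter fixed its direction, and DESeq2 called no gene of this list. The other 3 genes tested did not pass. *Mki67* was at 53.5 and 74.0 CPM in primary tumors against 0 and 22.2 CPM in lung (19 of the 25 UMIs of primary tumor replicate 6 lay in 1 cell). Of 11 dissociation and heat shock genes, *Ier3* rose and *Hspa1b* fell, and DESeq2 called neither.

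**Figure D4:**
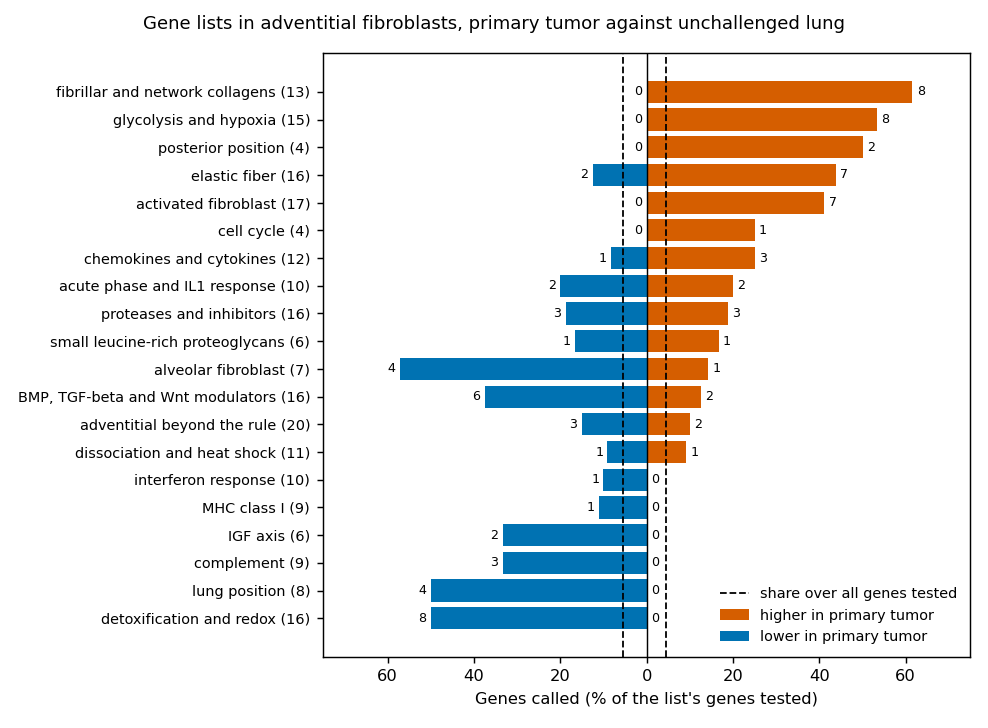
Percentage of the tested genes of each list that were higher (right) or lower (left) in adventitial fibroblasts of primary tumors than of unchallenged lung at an edgeR adjusted p below 0.05; numbers at the bars are genes, numbers in parentheses are genes tested, and dashed lines are the shares over all genes tested, 4.38% and 5.51%. Collagens, glycolysis, elastic fiber and activated fibroblast lists extend furthest to the right among the plotted lists with more than 4 genes, and lists of other cell types are not plotted.

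A further pair of genes with large changes had no UMI in lung. *Chl1*, a cell adhesion molecule, was at 36.0 CPM in the metastasis and 165 and 133 CPM in primary tumors, at least 32.5-fold above lung (edgeR adjusted p = 2.07e-06). *Nav3*, a neuron navigator protein, was at 18.0 CPM in the metastasis and 53.5 and 216 CPM in primary tumors. It was at least 32.9-fold above lung (edgeR adjusted p = 0.011), and the filter fixed the direction of both genes. In metastasis replicate 5, *Nav3* was held by 10.3% of adventitial and 9.66% of endothelial cells, and *Chl1* by 20.7% and 5.72%. In the other direction stood *Slco2b1*, an organic anion transporter, at least 21.5-fold higher in lung and without a UMI in primary tumors. The filter fixed its direction too.

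The remaining genes with the largest changes are known from other cell types. *Dct* and *Tyrp1*, enzymes of melanin synthesis, were higher in primary tumors, and *Scgb1a1* and *Cyp2f2*, products of airway club cells, were higher in lung. Of 7 melanoma genes tested, 6 were higher in primary tumors, and of 5 club cell genes 3 were higher in lung. The filter fixed the direction of 4 melanoma genes without a UMI in lung. It also did so for 3 club cell, 5 alveolar type 2, 4 ciliated cell, 3 neutrophil and 1 macrophage genes without a UMI in primary tumors. None of 5 endothelial, 4 macrophage and 5 neutrophil genes passed edgeR's test, while DESeq2 called 1 macrophage and 1 neutrophil gene lower in primary tumors. With 1 library left out, 1 to 5 of the neutrophil genes and 0 to 2 of the macrophage genes were lower, and with the replicate block 4 and 2. Of 5 alveolar type 2 genes 1, of 6 ciliated cell genes 2, of 4 mesothelial genes 1 and of 3 peribronchial genes 1 were lower in primary tumors. These counts moved with the setting, to 3 alveolar type 2 and 0 ciliated cell genes with DESeq2, and to 3 to 5 and 0 to 6 with 1 library left out. The 6 melanoma genes became 3 with DESeq2 and 3 to 7 with 1 library left out. The pericyte genes *Cspg4* and *Abcc9* went in opposite directions among 4 tested.

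Genes of other cell types were also counted in endothelial cells of the same library, taken as cells with *Pecam1*, endothelial markers and no fibroblast gene. *Scgb1a1* was held by 100% of adventitial and 99.9% of endothelial cells of lung replicate 5, and by 94.9% and 92.8% in replicate 6. In metastasis replicate 5, *Dct* was held by all 29 adventitial and by 100% of 559 endothelial cells, and *Tyrp1* by 62.1% and 50.4%. Such values are not read as expression by adventitial cells. Whether they come from free RNA in the library was not tested. *Inmt* was instead held by 90.3% of adventitial against 1.99% of endothelial cells of lung replicate 5. Median depths of adventitial and endothelial cells were 5901 and 2896 UMIs there, 1559 and 1458 UMIs in lung replicate 6, and 5895 and 2065 UMIs in the metastasis.

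Primary tumor replicates 5 and 6 held 15 and 1 endothelial cells, too few for such a comparison. In replicate 5, *Postn* was held by 13.3% of them and by 86.0% of adventitial cells, and *Dct* by 46.7% and 74.4%. The summed level of the 8 macrophage genes was 161 and 3545 CPM in lung, 480 CPM in the metastasis, and 45.3 and 5.92 CPM in primary tumors. The 5 neutrophil genes summed to 127 and 2710 CPM in lung against at most 54.0 CPM elsewhere. Leukocyte RNA was highest in unchallenged lung replicate 6, and its part in the genes that were lower in primary tumors was not tested.

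**Figure D5:**
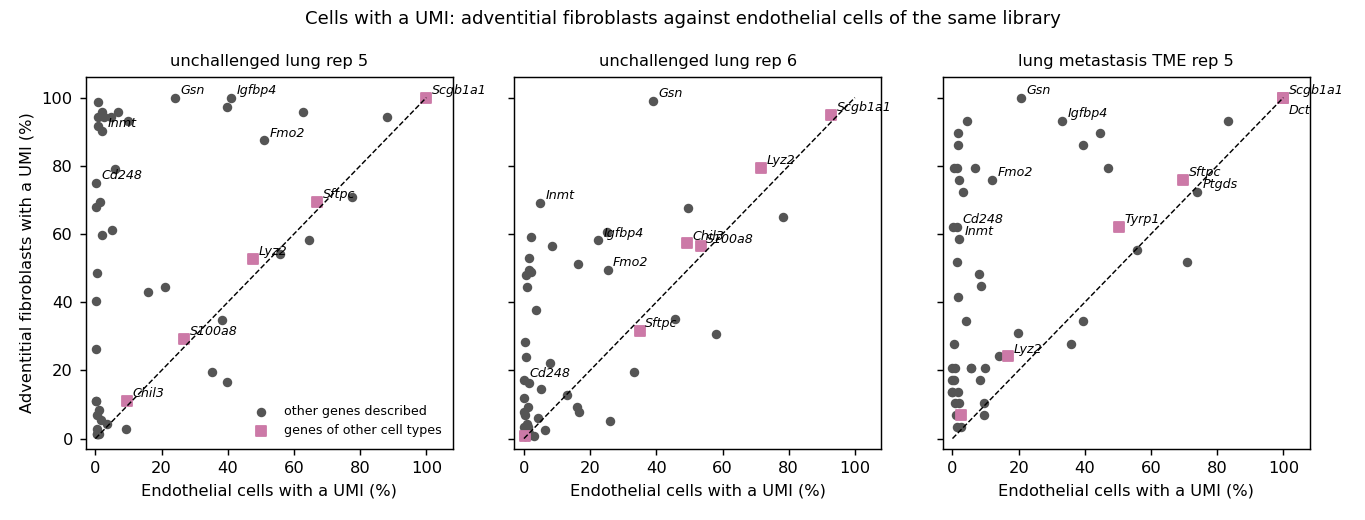
Percentage of adventitial fibroblasts (vertical axis) and of endothelial cells (horizontal axis) with a UMI of a gene, for the 3 libraries with at least 559 endothelial cells; squares are genes of other cell types, circles the other genes described, and the dashed line marks equal shares. Squares lie along the line, and *Inmt* lies far above it.

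Lung metastasis TME gave 1 library with at least 10 adventitial fibroblasts, replicate 5 with 29 cells and 166725 UMIs, so its genes were not tested. As a rule of size, chosen once cell numbers were known, genes were counted that lay at least 4-fold above or below both libraries of another tissue on the CPM + 10 scale. Against unchallenged lung, 38 of 6297 genes (0.603%) lay above and 42 (0.667%) below. Against primary tumor, 92 (1.46%) lay above and 118 (1.87%) below, which became 57 above and 33 below when primary tumor replicate 4, with 8 cells, was added. The median log2 ratio over all genes was -0.08 against lung and 0.03 against primary tumor. Against lung alone the count became 469 without lung replicate 5 and 170 without lung replicate 6. Against primary tumor it became 421 without replicate 5 and 335 without replicate 6. A gene had to pass against each library, so leaving 1 out could not lower these counts.

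By list, none of the 20 further adventitial genes, 13 collagen genes or 16 elastic fiber genes passed the 4-fold limit against lung, a count that differs little from the shares over all genes (0.603% and 0.667%). Of 17 activation genes, 2 (*Postn* and *Cthrc1*, the latter with 8 of its 12 UMIs in 1 cell) lay above lung and *Tgfbi* below. Against primary tumor, 3 collagen genes and 8 of 17 activation genes lay below and 4 of 16 detoxification genes above, beside 1.87% and 1.46% of all genes. In the elastic fiber list 1 of 16 genes passed, and in the lung position, interferon and MHC class I lists none of 8, 10 and 9, numbers too small to tell from the shares over all genes. *Sfrp2*, *Fbn2*, *Thbs4*, *Ccl2* and *Col8a1* had no UMI in the metastasis, which allows up to 18.0 CPM each, against at least 119 CPM in either primary tumor library. *Col5a3* was at 24.0 CPM (6.54 to 61.4) against 543 and 971 CPM.

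*Mndal*, an interferon-inducible gene with close copies nearby, and *E530011L22Rik* completed the genes lowest against primary tumor. Highest against it were *Inmt* at 1002 CPM (855 to 1166) and *Fmo2* at 828 CPM (695 to 978), both genes of lung mesenchyme, and *Sftpc*, *Scgb1a1*, *Msln*, *Lyz2*, *Sftpa1* and *Upk3b*, which are known from epithelial, mesothelial and myeloid cells. *Inmt* and *Fmo2* were each in the alveolar list, and the metastasis samples held some neighboring lung.

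Several genes above lung in the metastasis lay in single cells or were as frequent in endothelial cells. *Msln* and *Upk3b*, markers of mesothelium, were at 408 CPM (317 to 517) and 264 CPM (192 to 354). Of 68 *Msln* UMIs, 59 lay in 1 cell, which also held 39 of 44 *Upk3b* and 30 of 37 *Lgals7* UMIs, 2 *Pi16* UMIs and no *Clec3b*. *Cxcl13*, a B cell chemokine, was at 186 CPM, and all of its 31 UMIs lay in 1 cell. *Dct*, *Tyrp1* and *Ptgds* were held by endothelial cells as often or nearly so, with *Ptgds* in 72.4% of adventitial and 73.9% of endothelial cells.

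*Saa3*, an acute phase gene of inflamed tissue, was at 216 CPM (151 to 299) in the metastasis, 2.26 and 0 CPM in lung, and 12.3 and 2.96 CPM in primary tumors. It was held by 6 of 29 adventitial cells, and 24 of its 36 UMIs lay in 1 cell. In endothelial cells of the same library 9.84% held a UMI of it, against 20.7% of adventitial cells. Other fibroblasts of that library held *Saa3* at 369 CPM, above the adventitial cells.

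*Sftpc*, the surfactant gene of alveolar type 2 cells, was at 2855 CPM in the metastasis, and 442 of its 476 UMIs lay in 1 cell. That cell also held 69 of 78 *Lyz2* and 40 of 52 *Sftpa1* UMIs together with 32 *Pi16* UMIs. Without this cell and the cell rich in *Msln*, chosen after their values were seen, *Sftpc* was at 217 CPM, *Msln* at 61.1 CPM and *Lyz2* at 61.1 CPM, while *Saa3* was at 244 CPM, *Postn* at 136 CPM and *Wnt2* at 67.9 CPM. The counts of genes past 4-fold became 33 above and 46 below lung, and 78 above and 126 below primary tumor.

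Genes below lung in the metastasis were at few UMIs. *Naaa*, a lysosomal amidase, was at 104 and 133 CPM in lung with no UMI in the metastasis, and *Zfp36*, which destabilizes inflammatory mRNAs, was at 215 and 320 CPM against 18.0 CPM (3.71 to 52.6). *Tgfbi*, a TGF-beta induced matrix protein, was at 455 and 484 CPM in lung and 72 CPM (37.2 to 126) in the metastasis, with 24.7 and 424 CPM in primary tumors. *Golph3*, *Runx1t1*, *Nav2*, *Irf2bp2* and *Ssh2* lay at 0 to 24.0 CPM in the metastasis against at least 54.4 CPM in lung.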

How the data were processed

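The authors sequenced Chromium 3' v3.1 libraries, and per the labels the deposited counts, UMIs per gene and cell, were made with Cell Ranger 6.1.1 on GRCm38 and handled in Seurat 3.2.2. The authors had removed barcodes by quantile limits on genes, mitochondrial and ribosomal UMIs. A second deposited table of normalized values and 5 of 24 library names were not used, and 4 names were copies. No doublet caller was run.

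UMIs were summed over adventitial cells in each library with at least 10 of them. One edgeR 4.0.16 fit over 3 tissues (filterByExpr, TMM, robust quasi-likelihood F test, R 4.3.3, limma 3.58.1) was adjusted over 6297 genes. It was checked on simulated counts. The 15 genes of the gate entered library sizes only. With 1 metastasis library, the planned tests of that tissue were replaced by values with exact 95% Poisson intervals. A SE is the log2 fold change divided by the root of F. DESeq2 1.42.0, other gates and filters, a replicate block and leaving out a library were alternatives. Shares used exact permutation in scipy 1.17.1, with numpy 2.4.6, pandas 2.3.3, matplotlib 3.10.9 and Python 3.11.15. Positions are from GENCODE vM21.

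Named genes are the 8 largest rises and 8 largest falls among called genes whose mean level reached 50 CPM and whose libraries did not overlap (54.9% of all genes did not), and up to 4 per list with the lowest p. The other called genes of a list, *Gapdh* and *Fbln1* among them, and single genes of cells that stood apart were named after their values were seen. The gate and the lists were chosen with earlier results of these data known. Replicates are libraries, and p-values measure the spread between them. Some genes are not reported here.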

Additional observations from a re-analysis of the deposited data

Results flagged for a closer look

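By a gap criterion applied to 9 groups of 4 libraries, of which chance marks about 1 in 20, 3 values stood apart from the rest of their group. Lung metastasis TME replicate 5 held 29 adventitial fibroblasts against at most 1 in the other libraries of that tissue (gap over range 0.966). It was also the largest library of that tissue, with 5166 cells (0.917). Primary tumor TME replicate 6 held 1791 gated fibroblasts (0.903), of which 66 were adventitial.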

How the results depend on the processing

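The number of genes called between primary tumor and unchallenged lung was 623. It was 971 without a filter on low counts, 1215 with the replicate number as a block, 168 with DESeq2 and 9 when cells with *Ptprc*, *Pecam1* or *Epcam* were let in, and it was 354 to 897 with 1 library left out. The cause was not tested. The called genes of the 9 are *Sfrp2*, *Tyrp1*, *Chl1*, *Gm29237*, *Thbs4*, *Dct*, *Cthrc1*, *Syngr1* and *Scgb1a1*. The replicate block rests on replicates 5 and 6, which came from different mice in primary tumor and lung, so the numbers do not pair these 2 tissues. The deviations of replicate 5 in primary tumor and lung had a correlation of 0.11 over genes. Library names give metastasis and primary tumor replicates 5 and 6 the same mice, but the identical copies of these libraries carry other mouse numbers. Other gates, cell minimums and fitting 2 tissues alone gave 577 to 695 genes. Metastasis counts past 4-fold were 80 against lung, with 170 to 469 when 1 lung library was left out, and 210 against primary tumor, with 335 to 421 when 1 primary tumor library was left out and 90 when primary tumor replicate 4, with 8 cells, was added. Without 2 cells rich in *Msln* or *Sftpc* they were 79 and 204. A gene had to pass against each library of the other tissue. Leaving 1 out thus could not lower the metastasis counts, and adding 1 could not raise them.

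The shares kept their direction in all settings, including the replicate block (-44.4, -21.4 and -12.3 points for metastasis against lung, primary tumor against lung and metastasis against primary tumor, exact p = 0.5 each), and no p passed 0.05, which these numbers of libraries cannot reach. Leaving out 1 library gave -44.4 to -17.0, -36.0 to -8.53 and -12.6 to -0.455 points. A gate without UMIs of 8 genes of other cell types left 15 cells and no library with 10, so that alternative could not be fitted.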
